A study of Homo sapiens with 6 samples.

Results

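The genes described here are 10 members of the Notch pathway: the receptors NOTCH1, NOTCH2 and NOTCH3, the ligands JAG1, JAG2, DLL1 and DLL4, and the targets HES1, HEY1 and NRARP. They were listed by name and matched by symbol to 10 of the 60609 genes in the count tables. Each of the 10 had at least 1 count in at least 1 library, as did 34998 genes in all, and 9 of the 10 were among the 19114 genes with enough counts to be tested.

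Notch receptors are single-pass membrane proteins that are bound by ligands on a neighbouring cell. Binding lets ADAM proteases and then gamma-secretase cut the receptor, and the freed intracellular part enters the nucleus, where it joins the DNA-binding protein RBPJ and a Mastermind co-activator on target genes. HES and HEY genes, which encode repressors of the basic helix-loop-helix class, and NRARP, which encodes a small ankyrin-repeat inhibitor of the pathway, are among the best known of these targets. In blood, Notch signaling is known for directing T cell fate and for its part in T cell leukaemia.

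RNA was measured in K562 cells, an established human leukaemia line with erythroid and megakaryocytic features, by stranded poly(A) RNA-seq in 6 libraries. In all 6, both copies of EP400, the scaffold and ATPase subunit of the TIP60 complex, carried a C-terminal FKBP12F36V-2xHA tag, and the tagged protein was degraded with 500 nM dTAGV-1 for 24 h. The 3 WT libraries came from cells complemented with wild-type EP400 at the AAVS1 safe harbor locus, and the 3 Delta-TRRAP libraries from cells complemented with EP400 without its SANT and HD domains, which hold the TRRAP subunit in the complex. The question of the comparison is what happens to steady-state RNA when TRRAP is detached from TIP60. Each complemented line was 1 clone, so clone and genotype cannot be told apart, and the p-values below measure the spread between libraries of 1 clone.

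The libraries held 35076835 to 42616061 counts in genes. The WT libraries had 4833 to 5285 counts of EP400 and the Delta-TRRAP libraries 4119 to 7009, which do not separate transgene from tagged RNA. All 12 of a list of K562 erythroid genes were detected well enough to be tested, among them GATA1 with a WT mean of 6605 normalized counts against 5815 in Delta-TRRAP. Of the 12, the globin genes HBZ (log2 fold change 2.89) and HBE1 (2.08) were higher in Delta-TRRAP, and the transferrin receptor gene TFRC (-1.09) and LMO2 (-1.14) were lower. The list summed to 233075 to 235508 normalized counts in the WT libraries and to 146231 to 150593 in the Delta-TRRAP libraries, most of it TFRC, and its part in the Notch results was not tested. A normalized count is a count divided by the library's TMM-scaled size relative to the geometric mean over the 6 libraries. Genes with transcripts over 8000 bases lay a median of 0.13 log2 units above their group mean in Delta-TRRAP replicate 2 and 0.11 below it (-0.11) in replicate 3, which touches NOTCH1, NOTCH2 and NOTCH3. In bulk RNA, fewer cells that use a gene and less RNA per cell cannot be told apart.

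The bases just upstream of HES1 and NRARP are given, because these 2 targets differed most in their fold changes between the groups. Both come from the RefSeq promoter table on GRCh38.p14 and end at the base before the annotated start. In HES1, at chr3:194135978-194136147 on the plus strand, capitals mark the core of the RBPJ site, TGGGAA, and the N-box, CACNAG, a site for HES repressors, on either strand. In NRARP, at chr9:137302272-137302361 on the minus strand, capitals mark TATAAA.

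HES1: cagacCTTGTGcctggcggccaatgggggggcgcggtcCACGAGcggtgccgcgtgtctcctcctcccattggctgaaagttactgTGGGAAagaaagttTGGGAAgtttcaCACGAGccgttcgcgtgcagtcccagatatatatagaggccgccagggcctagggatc

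NRARP: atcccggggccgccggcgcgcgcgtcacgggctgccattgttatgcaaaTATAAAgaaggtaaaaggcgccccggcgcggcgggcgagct

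The HES1 stretch held 2 TGGGAA matches, from -84 to -79 and from -70 to -65 counted from the annotated start at 0. The first of them lay within a GTGGGAA, the longer form of the site. Of the 8 genes with a promoter window (250 bases before to 50 after the start), HES1 was the one with a TGGGAA, which 24% of the 35116 windows in the table held on at least 1 strand. Only 3.8% of the windows held 2 or more, while GTGGGAA was in 6.25%. HES1 also held 4 N-box matches, 3 of them in the stretch printed, against 2 in NOTCH1, 1 each in NOTCH2, NOTCH3, DLL4 and NRARP, and none in JAG1 and JAG2. An N-box was found in 38% of all windows. TATAAA, in 11.5% of all windows, was found among the 8 in NRARP, from -41 to -36, and none of the 8 held the E-box CACGTG, which 7.26% of all windows held. The G and C content of the 8 windows was 59% in HES1 and 68.7% to 79.7% in the others. These matches are letters in 1 window and do not show that a factor bound there.

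In Delta-TRRAP cells, 5 of the 9 genes tested were lower than in WT: NOTCH1, JAG2, DLL4, HEY1 and NRARP. NOTCH2 and JAG1 were higher, and NOTCH3 and HES1 did not pass the test. A gene was called at an adjusted p of 0.01 or less in edgeR's quasi-likelihood test (Benjamini-Hochberg over all genes tested) and a fold change of at least 2. Over all 19114 genes tested, 22.6% were called, 16.5% as higher and 6.08% as lower. The 7 called genes were also the 7 whose adjusted p alone passed, as it did for 58.3% of all genes. In the same 7, the groups did not overlap, which was so for 71.1% of all genes, so that the absence of overlap is common in these libraries. The median log2 fold change of the 9 genes was -1.03, beside 0.03 over all genes tested.

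**Figure D1:**
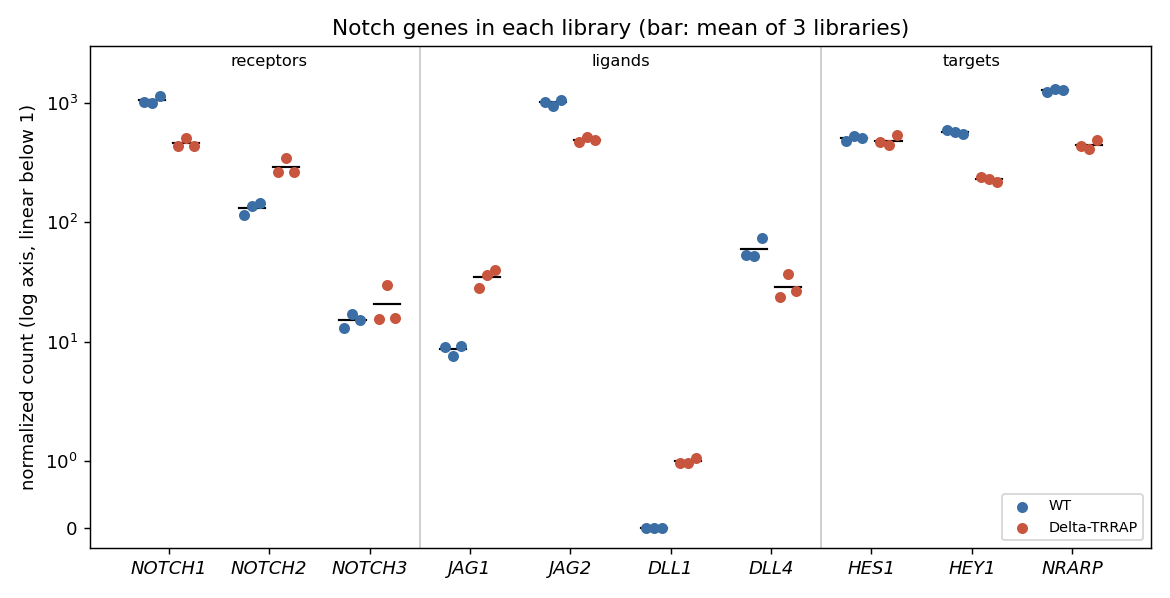
Normalized counts of the 10 Notch genes (y axis, logarithmic above 1 and linear below) in the 3 WT libraries (blue) and the 3 Delta-TRRAP libraries (red), with a bar at each mean. NOTCH1, JAG2, HEY1 and NRARP sit near or above 550 in WT and near or below 520 in Delta-TRRAP, NOTCH2 and JAG1 move the other way, and the groups overlap in NOTCH3 and HES1.

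NOTCH1, the receptor best known from T cell leukaemia, was the most abundant receptor of these cells and was lower in Delta-TRRAP. The 3 WT libraries had 1026, 999 and 1153 normalized counts and the 3 Delta-TRRAP libraries 440, 510 and 433. Every Delta-TRRAP library lay far below every WT library. The log2 fold change was -1.20 ± 0.08 (SE, n = 3 per group, 95% interval -1.36 to -1.03), with an edgeR adjusted p of 2.16e-09. NOTCH1 (ENSG00000148400.12) lies on the minus strand of chromosome 9, from 136494433 to 136546048 on GRCh38.

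NOTCH2, the receptor with broad expression outside the T lineage, was higher in Delta-TRRAP. Its normalized counts were 116, 136 and 147 in WT and 267, 346 and 266 in Delta-TRRAP, where replicate 2 stood highest. The lowest Delta-TRRAP library was still well above the highest WT library. The log2 fold change was 1.14 ± 0.13 (95% interval 0.87 to 1.41), with an edgeR adjusted p of 9.89e-07. NOTCH2 (ENSG00000134250.20, chromosome 1, 119911553 to 120100779, minus strand) has near-identical NOTCH2NL copies, and reads that map to several places were discarded by the authors, so its level is uncertain. The 3 NOTCH2NL genes listed were at or near 0: NOTCH2NLC had 2 to 14 counts per library, NOTCH2NLA had 1 count in all and NOTCH2NLB none. Reads shared between copies are missing from these counts too, so they do not show how much RNA the copies made.

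NOTCH3, known for its role in vascular smooth muscle, was close to the lowest levels tested. Its normalized counts were 13.2, 17.3 and 15.3 in WT and 15.7, 30.2 and 15.9 in Delta-TRRAP. Of the Delta-TRRAP libraries, only replicate 2 stood above the WT range. The log2 fold change was 0.44 ± 0.32 (95% interval -0.24 to 1.11), with an edgeR adjusted p of 0.234. Without Delta-TRRAP replicate 2 the estimate was 0.05. The estimate rests on 46 WT and 62 Delta-TRRAP counts, and a change of any size within that interval is not excluded. NOTCH3 (ENSG00000074181.9) lies on chromosome 19, from 15159038 to 15200995 on the minus strand.

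The make-up of the receptors differed between the groups. Per kilobase of exon, NOTCH1 held 89.6% ± 1.10 (SD, n = 3) of the signal of the 4 NOTCH genes in WT and 64.9% ± 2.05 in Delta-TRRAP. NOTCH2 held 8.40% ± 0.71 in WT and 30.7% ± 0.96 in Delta-TRRAP. The spread between libraries of a group was far smaller than either difference. NOTCH3 held 1.55% to 2.04% of the WT signal and 3.13% to 4.94% of the Delta-TRRAP signal. NOTCH4, which had 7 WT and 11 Delta-TRRAP counts and was not tested, held means of 0.252% and 0.640%. Summed over the 4 receptors, the WT libraries held 90.1 to 103 normalized counts per kilobase and the Delta-TRRAP libraries 52.2 to 65.1. The summed level thus differed by a smaller factor than NOTCH1 alone.

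**Figure D2:**
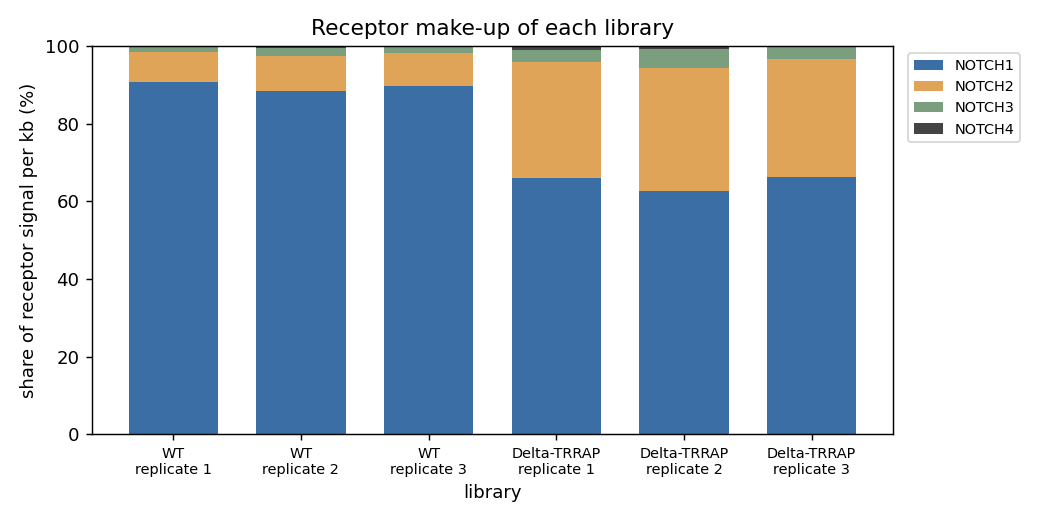
Share of the summed receptor signal per kilobase of exon (y axis, percent) held by each NOTCH gene in each of the 6 libraries. NOTCH1 takes 88.5% to 90.7% of the WT bars and 62.5% to 66.2% of the Delta-TRRAP bars, and NOTCH2 takes most of the rest.

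The ratio of NOTCH1 to NOTCH2 counts within a library does not depend on scaling between libraries. It was 8.89, 7.33 and 7.87 in WT and 1.65, 1.47 and 1.63 in Delta-TRRAP. The 2 ranges were far apart, with means of 8.03 ± 0.79 and 1.58 ± 0.097 (SD, n = 3). An exact two-sided permutation test gave p = 0.1, the smallest that 3 against 3 libraries can give. This ratio and the 3 given below were chosen after the values were seen, and each of the 4 had the same exact p and a Benjamini-Hochberg adjusted p of 0.1.

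Among the 4 ligands JAG1, JAG2, DLL1 and DLL4, JAG2 was by far the most abundant. It had 1027, 947 and 1055 normalized counts in the WT libraries and 469, 520 and 491 in the Delta-TRRAP libraries. A wide gap separated the groups. Its log2 fold change was -1.03 ± 0.07 (95% interval -1.17 to -0.89), with an edgeR adjusted p of 2.09e-09. This fold lay close to the threshold of 2, and the estimate was -0.93 with upper quartile scaling, -0.90 with library size scaling and -0.85 with a correction for GC content and transcript length, none of which reached it. JAG2 (ENSG00000184916.9) lies on chromosome 14, from 105140982 to 105168824 on the minus strand.

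JAG1, a Jagged ligand of the same class, moved in the opposite direction from a low level. Its normalized counts were 9.12, 7.67 and 9.16 in WT and 28.4, 36.1 and 40.2 in Delta-TRRAP. Every Delta-TRRAP library held more than 3 times the highest WT value. Its log2 fold change was 2.0 ± 0.28 (95% interval 1.40 to 2.59), with an edgeR adjusted p of 1.19e-05. It rests on 26 WT and 104 Delta-TRRAP counts. Both group means were above the level of 5 used to choose the genes tested. JAG1 (ENSG00000101384.12) lies on chromosome 20, from 10637684 to 10673999 on the minus strand. JAG2 counts were 113, 123 and 115 times those of JAG1 in the WT libraries and 16.5, 14.4 and 12.2 times in the Delta-TRRAP libraries (exact permutation p = 0.1).

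DLL4, the Delta-like ligand known from sprouting vessels and the thymus, was lower in Delta-TRRAP. The WT libraries had 53.7, 52.8 and 74.3 normalized counts and the Delta-TRRAP libraries 23.5, 37.0 and 26.4. WT replicate 3 stood above the other WT libraries, and the groups did not overlap. The fitted log2 fold change was -1.05 ± 0.22 (95% interval -1.51 to -0.58), with an edgeR adjusted p of 0.000579. The call was lost, by fold and not by p, without WT replicate 3 (-0.88), without Delta-TRRAP replicate 1 (-0.92) and without Delta-TRRAP replicate 3 (-0.99). It was also lost by fold with upper quartile scaling (-0.95), library size scaling (-0.91) and the correction for GC content and transcript length (-0.97). DLL4 (ENSG00000128917.8) lies on chromosome 15, from 40929340 to 40939073 on the plus strand.

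DLL1, a Delta-like ligand used in culture to drive T cell fate, was at the limit of detection. It had 0 counts in each WT library and 1 count in each Delta-TRRAP library. Both groups were at or under the floor of 3 counts over a group that a count of 0 allows, so no fold is given. It was not among the genes tested, and with no filter on low counts its edgeR adjusted p was 0.213. DLL1 (ENSG00000198719.9) lies on chromosome 6, from 170282206 to 170306565 on the minus strand.

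The 3 targets did not move together. NRARP, the feedback inhibitor, had normalized counts of 1245, 1305 and 1285 in WT and 435, 414 and 491 in Delta-TRRAP. The libraries of each group were close to each other and the groups were far apart. Its log2 fold change of -1.52 ± 0.07 (95% interval -1.66 to -1.37) was the largest fall among the 9 genes tested, with an edgeR adjusted p of 3.05e-11. NRARP (ENSG00000198435.4, chromosome 9, 137299631 to 137302271, minus strand) and NOTCH1 are separated by 754 kb.

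HES1, the target with the paired TGGGAA letters printed above, had normalized counts of 484, 532 and 512 in WT and 467, 441 and 536 in Delta-TRRAP. The highest library of all was a Delta-TRRAP library, and the groups overlapped. The fitted log2 fold change was -0.08 ± 0.08 (95% interval -0.25 to 0.09) and turned to 0.017 and 0.049 with upper quartile and library size scaling, with an edgeR adjusted p of 0.362. The interval does not reach a fold change of 2 in either direction. HES1 (ENSG00000114315.4) lies on chromosome 3, from 194136148 to 194138732 on the plus strand.

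HEY1, the other repressor, fell while HES1 did not pass the test. The WT libraries held 591, 572 and 555 normalized counts and the Delta-TRRAP libraries 242, 231 and 219. Within each group the libraries were close, and the groups were far apart. Its log2 fold change was -1.31 ± 0.07 (95% interval -1.47 to -1.15), with an edgeR adjusted p of 5.81e-10. HEY1 (ENSG00000164683.17) lies on chromosome 8, from 79762371 to 79767857 on the minus strand.

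Ratios within each library set the targets against HES1. NRARP counts were 2.57, 2.45 and 2.51 times those of HES1 in WT and 0.933, 0.940 and 0.915 times in Delta-TRRAP. HEY1 counts were 1.22, 1.07 and 1.08 times those of HES1 in WT and 0.519, 0.524 and 0.408 times in Delta-TRRAP. In both ratios the groups were well separated, on the log2 scale by -1.43 for NRARP and -1.23 for HEY1 (exact permutation p = 0.1 each). In counts not divided by length, NRARP thus went from above HES1 to just below it. Per kilobase of exon, NRARP had 484 normalized counts against 247 for HES1 in WT, and 169 against 234 in Delta-TRRAP.

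**Figure D3:**
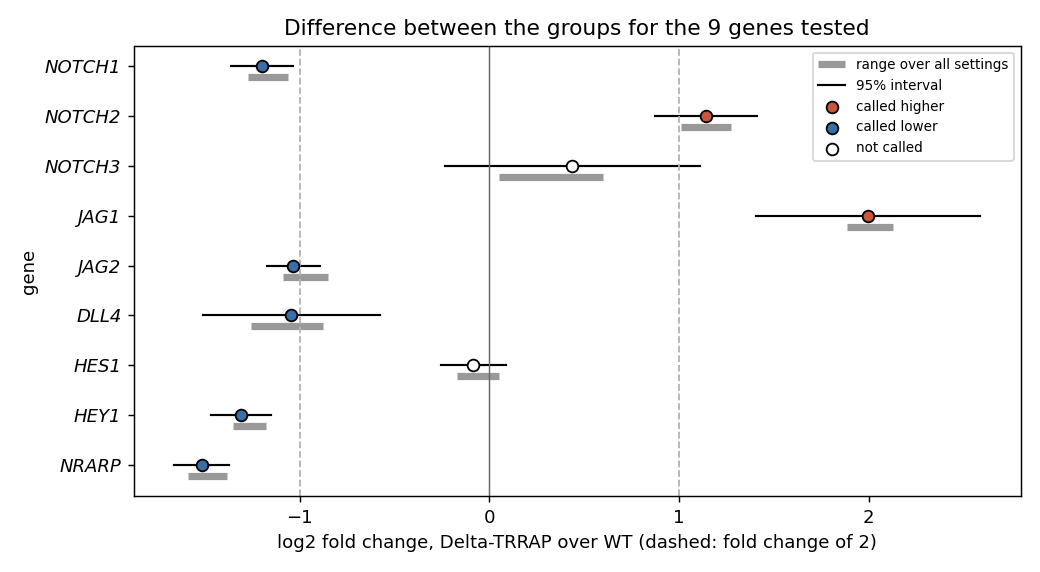
Log2 fold change of Delta-TRRAP over WT (x axis) for the 9 genes tested, with points at the estimate, thin lines for its 95% interval, thick grey lines for its range over the settings tried and dashed lines at a fold change of 2. The grey lines of JAG2 and DLL4 cross the dashed line at -1, those of NOTCH1, NOTCH2, JAG1, HEY1 and NRARP stay beyond 1 or -1, and those of NOTCH3 and HES1 stay between them.

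Per kilobase of exon, the order of levels in WT was NRARP (484 normalized counts per kilobase), HES1 (247), JAG2 (158), HEY1 (104), NOTCH1 (84.5), DLL4 (12.7), NOTCH2 (7.93), NOTCH3 (1.62), JAG1 (0.930) and DLL1 (0). By this length, no neighbours in that order overlapped between libraries, although HEY1 and NOTCH1 were close. In Delta-TRRAP the order was HES1 (234), NRARP (169), JAG2 (77.1), HEY1 (42.1), NOTCH1 (36.8), NOTCH2 (17.5), DLL4 (6.10), JAG1 (3.75), NOTCH3 (2.19) and DLL1 (0.263). Here HEY1 and NOTCH1 overlapped between libraries, and so did JAG1 and NOTCH3. HES1 and NRARP, NOTCH2 and DLL4, and JAG1 and NOTCH3 had thus changed places between the groups, the last pair within the overlap of its Delta-TRRAP libraries. These places, gaps and overlaps depend on the length used, here the exons of all transcripts joined. For HEY1 that length was 5487 bases against 2197 in its canonical transcript, and for NOTCH1 12531 against 9568. A shorter length would place HEY1 higher, and the order by canonical transcript was not computed.

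A mean of at least 100 normalized counts was found in 6 of the 10 genes. Of the 11459 genes tested at that level, 5.93% were called lower and 7.03% higher, and their median log2 fold change was -0.09. Among these 6, NOTCH1, JAG2, HEY1 and NRARP were called lower, NOTCH2 was called higher and HES1 was not called. By the root mean square distance between centred log2 normalized counts over the 6 libraries, the genes at that level most like NRARP were MAPK11 (0.0502), a p38 kinase, TFAP4 (0.0507), a helix-loop-helix transcription factor, and KIT (0.0512), the receptor for stem cell factor. Their log2 fold changes were -1.48, -1.44 and -1.48.

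The other genes of the pathway were taken from a list of 63, of which 52 were tested. TLE4 and DTX4 were higher, and DLK1, LFNG and DLL3 were lower, while 47 were not called. These 2 higher and 3 lower calls of 52 stand beside 16.5% and 6.08% of all genes. Among genes tested with a mean of at least 100 normalized counts, 7.03% were called higher and 5.93% lower. Most of the list was well counted, as 48 of the 52 were still tested with a minimum mean of 50. By adjusted p alone, 10 of the 52 were higher and 21 were lower, a share close to the 58.3% of all genes. The median log2 fold change over the 52 was -0.14.

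Further ligands were the group in which both genes tested were called. DLK1, an imprinted Delta-like protein without the domain that activates receptors, had normalized counts of 5094, 5266 and 5245 in WT and 109, 112 and 106 in Delta-TRRAP. The groups lay far apart, with a mean 47.7-fold lower in Delta-TRRAP and a log2 fold change of -5.58 (edgeR adjusted p 7.58e-17). DLL3, a Delta-like protein held mostly inside the cell, had 160, 150 and 137 in WT and 61.8, 52.6 and 75.1 in Delta-TRRAP. It also showed no overlap, with a log2 fold change of -1.24 (edgeR adjusted p 1.61e-06), which came to -0.96 and missed the fold threshold with the correction for GC content and transcript length. DLK2 had 13 and 7 counts and was not tested.

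Among 7 genes of receptor glycosylation and processing, 6 were tested and LFNG was called. LFNG encodes Lunatic fringe, a glycosyltransferase that alters which ligands a receptor answers to, and had normalized counts of 20.3, 20.1 and 15.3 in WT and 6.86, 7.80 and 2.12 in Delta-TRRAP. The groups did not overlap, and the log2 fold change was -1.69 from 56 and 17 counts (edgeR adjusted p 0.00122). POFUT1, which adds the first fucose to Notch, missed the fold threshold with a log2 fold change of -0.81 (edgeR adjusted p 4.30e-09). None of the 8 genes of the ADAM and gamma-secretase proteases was called, and the value furthest from 0 was a log2 fold change of -0.88 in APH1A, a gamma-secretase subunit.

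Among the 9 tested genes of receptor turnover, DTX4, which encodes a Deltex E3 ubiquitin ligase, was higher. It had 7.09, 3.84 and 3.05 normalized counts in WT and 14.7, 14.6 and 9.52 in Delta-TRRAP, which did not overlap. Its log2 fold change was 1.46 from 14 and 39 counts (edgeR adjusted p 0.00589), and DTX4 passed the filter only through its level in Delta-TRRAP. Its adjusted p rose above 0.01 with DESeq2 (0.0325) and in edgeR without WT replicate 2 (0.0254), WT replicate 3 (0.0283), Delta-TRRAP replicate 1 (0.0242) or Delta-TRRAP replicate 2 (0.0171). The nuclear complex held no called gene among 9 tested. RBPJ itself had a log2 fold change of -0.11 (edgeR adjusted p 0.0659), and the highest of the 9 was KAT2B, an acetyltransferase, at 0.95.

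Among the 11 tested RBPJ co-repressors, TLE4, of the Groucho family, was higher. Its normalized counts were 26.3, 28.8 and 29.5 in WT and 120, 107 and 121 in Delta-TRRAP. Each Delta-TRRAP library was over 3 times the highest WT library, and the log2 fold change was 2.03 (edgeR adjusted p 1.70e-08). Of 9 further targets, 4 were tested and none was called, with log2 fold changes from -0.71 in HES4 to 0.31 in HES2. By p alone, 2 of the 4 passed, both lower: HES4 (edgeR adjusted p 0.000233) and HES6 (-0.64, edgeR adjusted p 9.90e-07). This stands beside 58.3% of all genes. HES5 had no counts in the 6 libraries. None of the 3 tested genes of ligand endocytosis was called, with MIB1, the main ligase for Notch ligands, at 0.05. MIB2 was at 0.63 (edgeR adjusted p 6.14e-07), and NEURL1, from 26 and 47 counts, at 0.86 (edgeR adjusted p 0.0488).

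**Figure D4:**
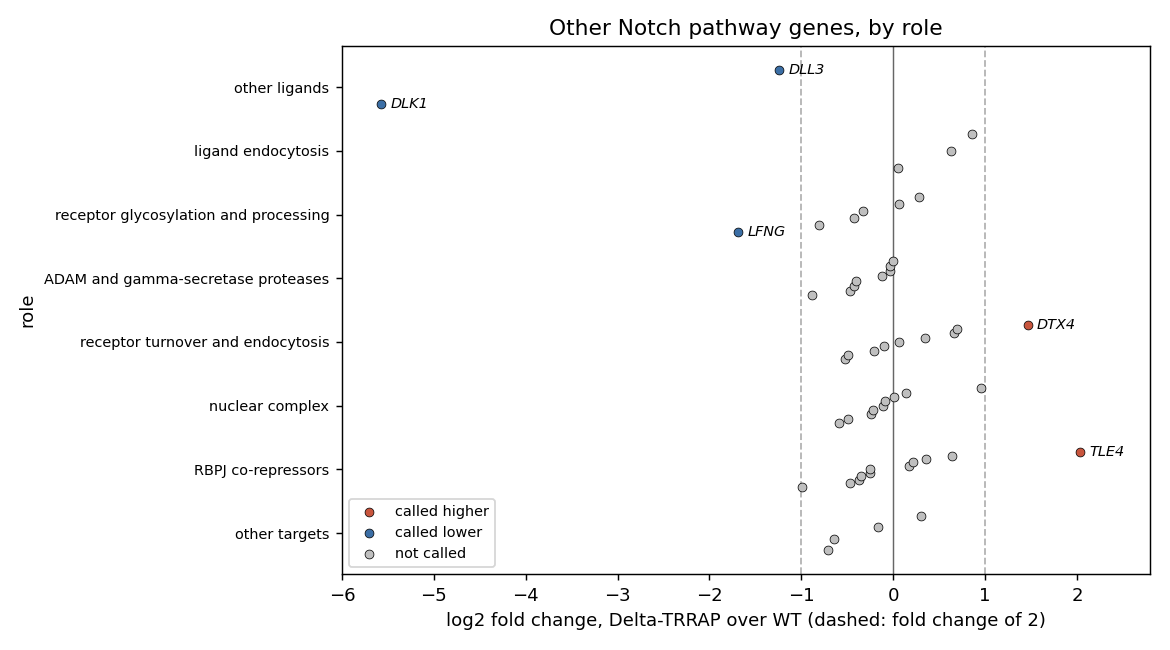
Log2 fold change of Delta-TRRAP over WT (x axis) for the 52 other pathway genes tested, by role (y axis), with dashed lines at a fold change of 2. The 5 called genes are named, and the 8 ADAM and gamma-secretase genes and the 9 genes of the nuclear complex lie between the dashed lines.

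Neighbouring genes were compared to set each gene beside its surroundings on the chromosome. HES1 lay among 12 tested genes with a first coordinate within 1 Mb of its own, whose median log2 fold change was -0.96. Of these 12, 9 were below 0 and 4 were called lower: LINC02038 (-1.44), LINC00884 (-1.72), TMEM44 (-1.07) and XXYLT1 (-1.11). HES1, at -0.08, was thus above the median of its neighbours, among which TMEM44-AS1 (0.92), FAM43A (0.56) and AC046143.1 (0.26) lay above 0. The 12 neighbours of HEY1 had a median of -0.42, with 2 called lower and 1 higher.

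NRARP had 60 such neighbours with a median of -0.14, of which 2 were called lower and 3 higher. NOTCH1 had 64 with a median of -0.10, of which 2 were called lower and 5 higher. Each of these genes was 1 of the 2 lower neighbours of the other, and SAPCD2 (-2.06) was the second for both. The medians were -0.09 for the 25 neighbours of JAG2, -0.08 for the 5 of JAG1, -0.18 for the 53 of DLL4 and -0.004 for the 10 of NOTCH2. The values of NRARP, NOTCH1, JAG2, DLL4, JAG1 and NOTCH2 themselves were all further from 0 than these medians. That follows from the choice of genes, since each was called at a fold change of at least 2. A part of position in any of these results was not tested.

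**Figure D5:**
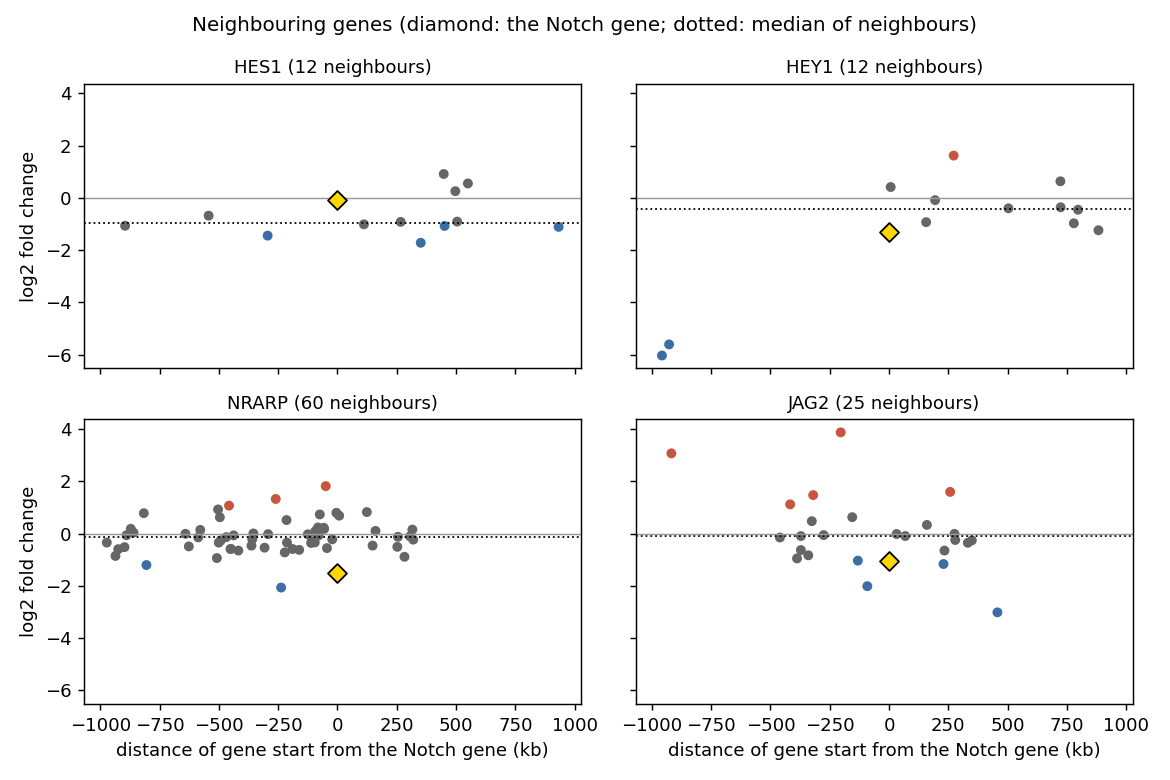
Log2 fold change of Delta-TRRAP over WT (y axis) of tested genes against the distance of their first coordinate from that of the Notch gene (x axis, kb), for 4 of the genes, with blue points called lower, red points called higher and dark grey points not called. The neighbours of HES1 have a dotted median line at -0.96 with HES1 (yellow diamond) above it, while NRARP and JAG2 lie below medians of -0.14 and -0.09.

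Other cell types that use Notch genes were checked by their markers. Of 12 fibroblast and mural genes, 7 were tested and 4 (COL1A2, PDGFRB, ACTA2 and POSTN) were higher in Delta-TRRAP, beside 16.5% of all genes. These 4 passed the filter on low counts only through their Delta-TRRAP level, so the filter favoured higher calls among them. Their number can therefore not be read against the share of all genes. The WT libraries summed to 111 to 132 normalized counts and the Delta-TRRAP libraries to 1584 to 1619. COL1A2 and ACTA2 made up most of the Delta-TRRAP sum, while PDGFRA and LUM were at 0 in all 6 libraries. COL1A1 (log2 fold change 0.06), DCN (-0.41) and TAGLN (0.66) were tested and not called. FAP and THY1 had at most 1 count in any library, and COL3A1, not tested, had means of 0.678 in WT and 9.36 in Delta-TRRAP. The sum was higher along with JAG1 and NOTCH2, both of which such cells use, while NOTCH3, known from smooth muscle, was not called. The part of this list in the values of these genes was not tested. Of 8 endothelial genes, 3 were tested and 1 (TEK, which also passed only through Delta-TRRAP) was higher, and the sums of 682 to 695 (WT) and 421 to 497 (Delta-TRRAP) were mostly PECAM1, while CDH5 was at or near 0. Of 8 T cell genes, 4 were tested and 1 (RAG1) was higher, with sums of 775 to 854 and 1270 to 1407, while CD8A was at 0 throughout. RAG1 carried the rise in the sum, with means of 333 normalized counts in WT and 886 in Delta-TRRAP. CD3D (434 and 387), CD2 (6.62 and 0.652), CD4 (5.27 and 4.04) and BCL11B (1.34 and 0.327) were lower. CD3E (17.0 and 18.8) and CD3G (12.9 and 23.0) were higher, and none of these was called. The endothelial sum was lower along with DLL4 through PECAM1, with means of 674 normalized counts in WT and 401 in Delta-TRRAP. TEK (2.30 and 34.0), KDR (0 and 5.70), ERG (0.677 and 6.08) and VWF (0.320 and 3.32) were higher in Delta-TRRAP from near 0. TIE1 (9.36 and 11.3) was not called, and KDR, ERG and VWF were not tested. Neither the endothelial nor the T cell list's part in the values of NOTCH1 or DLL4 was tested.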

How the data were processed

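The authors deposited counts of reads per gene for each of the 6 libraries. Per the methods of the study, STAR kept reads with 1 place in hg38, and HTSeq 2.0.2 counted those on the strand opposite to each GENCODE gene (its reverse setting, union mode), so reads of near-identical copies were lost. A deposited table of normalized signal, with 3 columns from libraries of another condition, and a table of the authors' own fold changes and p-values were not used. Groups came from the sample titles.

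Counts were tested with edgeR 4.0.16 (R 4.3.3), TMM scaling and the quasi-likelihood test with group as the only term, on genes whose normalized counts averaged at least 5. Calls needed both a fold change of at least 2 and an adjusted p (Benjamini-Hochberg) no higher than 0.01. The 10 genes, the lists and the tests were chosen with earlier results of these data known. The text names all 10 genes, every called gene of the pathway list and the 3 genes most like the called gene with the largest change among those with a mean of at least 100. Genes named beside these were chosen after their values were seen. Libraries of a group differed by 4.93 to 15.5 times the chi-square of counting alone, so none was a copy. Alternatives were DESeq2 1.42.0, limma-voom (limma 3.58.1), other scalings, filters and thresholds, the replicate number as a block, leaving out each library and, added after the data were seen, a correction for GC content and transcript length. Positions and exon lengths came from GENCODE release 44 on GRCh38, a later release than the one the authors counted on, so per-kilobase levels mix annotations. Promoters came from RefSeq. HEY1 and DLL1 had no promoter window. Intervals cover the spread between libraries only.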

Additional observations from a re-analysis of the deposited data

How the results depend on the processing

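NOTCH1, NOTCH2, JAG1, HEY1 and NRARP kept their direction and their call in each of the 16 or 17 settings in which they were tested, JAG2 was called in 13 of 17 and DLL4 in 10 of 16. The lower calls among the 9 genes dropped from 5 to 3 with upper quartile scaling, library size scaling, a minimum mean of 50 and the correction for GC content and transcript length, and a minimum mean of 50 left 1 higher call because JAG1 was no longer tested. JAG2 had a log2 fold change of -0.93, -0.90, -0.96 and -0.85 in these 4 settings. DLL4 had -0.95, -0.91 and -0.97 with the 2 scalings and the correction, and -1.26 to -0.88 when each library was left out. HES1 turned to 0.017 with upper quartile and 0.049 with library size scaling. These 2 scalings moved the median of all genes by 0.10 and 0.14 log2 units. Apart from the settings' own construction (fewer genes tested, shifted scaling), the cause was not tested.

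Of the 52 other pathway genes, 2 were called higher and 3 lower. The lower calls came to 4 with DESeq2, limma-voom, RLE scaling, no filter on low counts and the replicate block. Leaving out each library gave 3 or 4 lower calls, while a minimum mean of 50 and the correction for GC content and transcript length gave 2. Upper quartile scaling, library size scaling and that correction gave 3 higher calls. DTX4 was the higher call that was lost: DESeq2 left 1 higher call, and leaving out each library in turn gave 1 to 2, with 1 without WT replicate 2, WT replicate 3, Delta-TRRAP replicate 1 or Delta-TRRAP replicate 2. A fold threshold of 1.5 gave 7 higher and 9 lower. With the longest transcript as length, NOTCH1 held 62.3% of the receptor signal in Delta-TRRAP and NOTCH2 held 9.58% in WT and 33.9% in Delta-TRRAP. Without NOTCH2, NOTCH1 held 97.8% in WT and 93.6% in Delta-TRRAP, and NOTCH3 held 5.45% in Delta-TRRAP.

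The groups share replicate numbers, but same-numbered libraries did not deviate together (correlations of 0.08, -0.08 and -0.18 over 11459 genes), and were treated as unpaired. With the replicate block, 4184 genes were called in place of 4322, and the Notch genes stayed at 2 higher and 5 lower. Low counts limit DLL1, NOTCH3 and JAG1 among the 10 genes.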
